A study of Equus caballus with 18 samples.

Results

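The citric acid cycle enzymes described here are 8 genes whose products carry out steps of the cycle in the mitochondrial matrix: CS, IDH3A, IDH2, OGDH, KGD4, SUCLG1, FH and MDH2. Each was found as the probeset (a set of array probes for 1 transcript) whose only gene symbol in the platform annotation was that gene, and all 8 were found, 1 probeset each, among the 30559 probesets of the array. Of these probesets, 16789 carried a single symbol. RNA came from needle biopsies of the superficial gluteal muscle of healthy, exercised adult Thoroughbred horses under sedation, and each biopsy was measured on its own EquGene-1.0-st array. Clenbuterol, a β2-adrenergic receptor agonist used to treat airway obstruction, was given by mouth in both regimens. The low dose regimen was 0.8 μg/kg BID for 30 days, and its 5 horses, called L1 to L5 here, had an array at baseline, before the drug, and an array on day 14. The escalating regimen began at 0.8 μg/kg BID and went to 1.6, 2.4 and then 3.2 μg/kg, with 3 days on each of the earlier steps and 21 days on the last. Its 4 horses, called E1 to E4, had an array at baseline and an array on day 28. There was no group of untreated horses followed over the same time, so time in training and drug cannot be told apart. Regimen, day of biopsy and horse also differ together between the regimens.

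The citric acid cycle burns the acetyl groups that come from carbohydrate, fat and amino acids to carbon dioxide and hands the electrons to the respiratory chain. In skeletal muscle its enzymes are abundant in fibers rich in mitochondria, and citrate synthase activity is a customary measure of mitochondrial content. All of the enzymes are encoded in the nucleus and imported into the mitochondrion.

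The values are log2 expression values as the authors normalized them, and a difference of 1 is a doubling. The median over the probesets of an array lay at 2.42 to 2.74 in the 10 low dose arrays, at 4.06 to 4.22 at the escalating dose baseline and at 4.45 to 4.5 on day 28. The arrays of the regimens are therefore on different scales, and a value is compared only with its own regimen. Within arrays, the spread over probesets (standard deviation) was 1.71 to 1.80 at the escalating dose baseline and 1.49 to 1.53 on day 28, and in the low dose arrays it was 1.67 to 1.75 in L1 to L3 and 1.2 to 1.41 in L4 and L5. Levels of different probesets are not compared, since each has probes of its own. All 9 genes of a list of markers of any muscle fiber were measured, and their mean level was 8.36 to 11.2 over the low dose arrays and 11.5 to 11.98 over the escalating dose arrays, above the array median in every array, and the data do not go against the label of muscle.

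On day 28 of the escalating dose all 8 enzymes were lower than at baseline. Each was lower in 4 of 4 horses, with no overlap between the baseline and the day 28 arrays. The falls ran from 1.69-fold for MDH2, the malate dehydrogenase of the mitochondrion, to 8.72-fold for KGD4, a small subunit of the oxoglutarate dehydrogenase complex. All 8 passed an adjusted p under 0.05 (limma with horse as a block, two-sided, Benjamini-Hochberg over all probesets). By the same rule 20.2% of all probesets were called lower and 24.5% higher, so that 44.7% were called in 1 direction or the other. The median log2 change of the 8 enzymes was -1.35, beside 0.08 over all probesets. Day 28 arrays lay wholly below baseline arrays in 19.7% of all probesets, and 24.8% were lower in every horse. The study's methods also give thresholds of an unadjusted p under 0.05, there from an ANOVA, and a fold over 2. With these thresholds applied to the p from limma, 7 of the 8 were lower, all but MDH2, beside 12.4% of all probesets. Biopsies hold mixed cells, so that fewer cells of a type and less RNA per cell cannot be told apart.

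**Figure D1:**
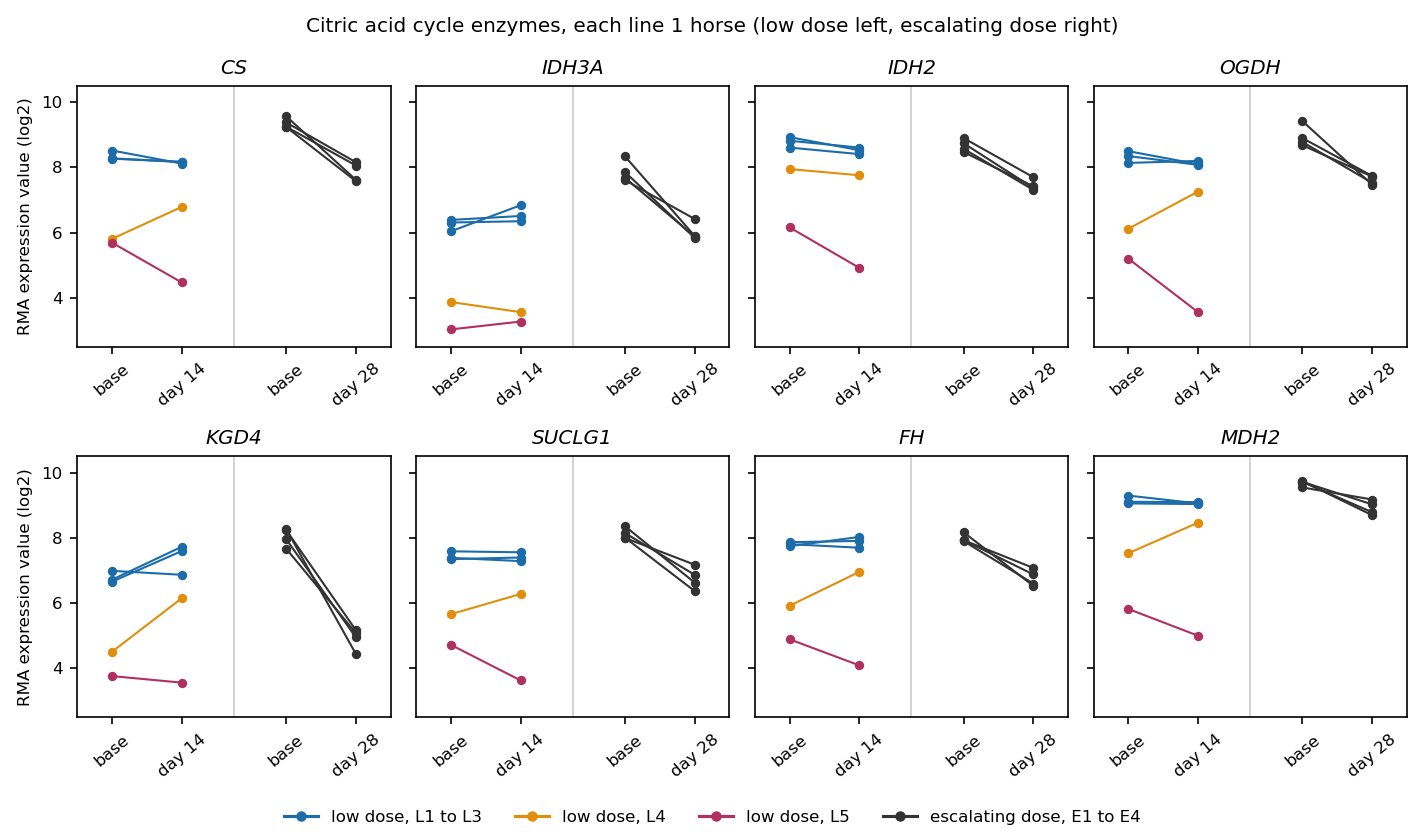
RMA expression values on the log2 scale (vertical axis) of the 8 enzymes, 1 panel each, with each line joining the baseline and the on-drug array of 1 horse, low dose on the left of a panel and escalating dose on the right. Every escalating dose line runs down, most steeply for KGD4, while the low dose lines of L4 and L5 lie apart from those of L1 to L3.

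CS encodes citrate synthase, which joins acetyl-CoA to oxaloacetate and opens the cycle. In E1, E2, E3 and E4 its value was 9.38, 9.24, 9.57 and 9.25 at baseline and 8.16, 7.58, 7.62 and 8.06 on day 28. The baseline values were close together, and the highest value on the drug was 1.08 below the lowest before it. CS thus fell to 35.2% of baseline, a log2 change of -1.50 (standard error, SE, 0.178) with an adjusted p from limma of 0.000573.

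The next oxidation is that of isocitrate. IDH3A encodes the catalytic subunit of the NAD-dependent enzyme, which is the form that works in the cycle proper, and IDH2 encodes the NADP-dependent enzyme of the same compartment. IDH3A measured 7.86, 7.68, 8.34 and 7.61 in E1 to E4 at baseline and 5.84, 5.88, 5.9 and 6.42 on day 28. E3 was the highest before the drug and E4 the highest on it, and the gap between the groups was 1.19. The fall of IDH3A was 3.64-fold (log2 change -1.86, SE 0.215, adjusted p from limma 0.000525). For IDH2 the baseline values were 8.57, 8.47, 8.74 and 8.9 and the day 28 values 7.31, 7.42, 7.37 and 7.7. E4 had the highest IDH2 value at both times, and the groups lay 0.77 apart. IDH2 fell by 1.22 (SE 0.138, adjusted p from limma 0.000481), which left 42.9% of baseline.

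Oxoglutarate is then oxidized to succinyl-CoA by a large complex. OGDH encodes its first component, the decarboxylating dehydrogenase, and KGD4 a small protein known from yeast and mammals that tethers the lipoamide dehydrogenase to the core. At baseline OGDH stood at 8.78, 8.9, 9.42 and 8.68 in E1 to E4, and on day 28 at 7.53, 7.74, 7.47 and 7.72. The 4 day 28 values spanned 0.27, and E3, the highest horse before the drug, became the lowest on it. OGDH fell 2.51-fold (log2 change -1.33, SE 0.193, adjusted p from limma 0.00138). KGD4 gave 8.24, 7.96, 7.67 and 8.27 at baseline and 5.17, 4.95, 5.08 and 4.44 on day 28. The gap between its groups, 2.5, was the widest among the 8 genes. Its log2 change of -3.12 (SE 0.214, adjusted p from limma 9.18e-05) left 11.5% of baseline and was the 55th lowest of the 30559 probesets. On day 28 KGD4 lay at percentiles 49.2 to 69.3 of its arrays, whose medians were 4.45 to 4.5. How far a level this near the array median affects the size of its fall was not tested.

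SUCLG1 encodes the alpha subunit of succinyl-CoA ligase, the step that makes GTP or ATP directly. It measured 8.15, 8.01, 8.36 and 8 at baseline and 6.87, 6.37, 6.63 and 7.18 on day 28. Baseline horses differed by 0.36 and day 28 horses by 0.81, with 0.82 between the groups. SUCLG1 was reduced 2.58-fold (log2 change -1.37, SE 0.188, adjusted p from limma 0.0011).

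FH encodes fumarase, which hydrates fumarate to malate, and MDH2 the enzyme that regenerates oxaloacetate. FH gave 7.93, 7.93, 8.17 and 7.9 at baseline and 6.88, 7.08, 6.53 and 6.6 on day 28. The groups were separated by 0.82, and E3 again went from the highest to the lowest value. FH fell by 1.21 (SE 0.172, adjusted p from limma 0.00127), a 2.31-fold difference. MDH2 was at 9.55, 9.72, 9.74 and 9.72 at baseline and at 9.18, 8.79, 8.7 and 9.03 on day 28. This was the narrowest separation of the 8 genes, 0.37 between the groups. The log2 change of MDH2 was -0.76 (SE 0.163, adjusted p from limma 0.00801), so that 59.2% of baseline remained, and by the paired test of the study's methods its adjusted p was 0.0517.

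The estimated falls of the enzymes were not of the same size. The 95% intervals of the log2 change were -3.63 to -2.62 for KGD4, -2.37 to -1.35 for IDH3A, -1.93 to -1.08 for CS and -1.14 to -0.37 for MDH2. Of the 28 pairs of enzymes, 8 had intervals that did not overlap, and 7 of these involved KGD4, with the pair of IDH3A and MDH2 as the other. CS, IDH2, OGDH, SUCLG1 and FH, with log2 changes between -1.50 and -1.21, had intervals that all overlapped. Overlap of intervals is not a test of a difference between genes measured in the same horses, and no order is drawn from it. KGD4 fell by more than every other member in 4 of 4 horses. Its change was lower than that of IDH3A by 0.15 to 2.64 and lower than that of OGDH, its partner in the complex, by 0.64 to 2.87. With 4 horses, an exact two-sided test on signs cannot go below p = 0.125, so these differences within horses were not tested further.

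Horses also differed in how far the enzymes fell. The median change over the 8 genes was -1.26 in E1, -1.4 in E2, -1.84 in E3 and -1.19 in E4. E3 had the largest fall in 7 of the 8 genes, and the exception was KGD4, which fell furthest in E4, by 3.83, and least in E3, by 2.59. E3 also had the highest standard deviation over probesets at baseline, 1.80, beside 1.71 in E1, 1.77 in E2 and 1.73 in E4. The part of this spread in the falls was not tested. As a description, deviations from the group means correlated above 0 in 19 of 28 pairs of enzymes over the 8 escalating dose arrays, with a median Pearson r of 0.17, from -0.87 between IDH3A and KGD4 to 0.87 between CS and SUCLG1. These points share their arrays and their normalization.

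**Figure D2:**
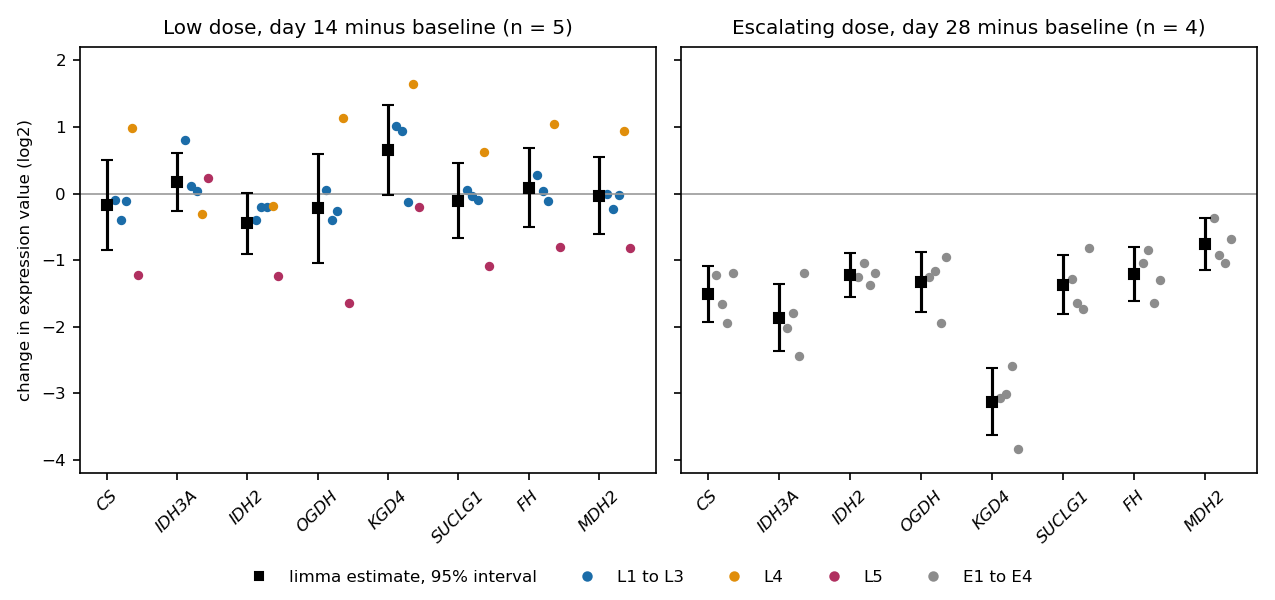
Change from baseline on the log2 scale (vertical axis) for the 8 enzymes, low dose on the left and escalating dose on the right, with squares and bars for the limma estimate and its 95% interval and dots for single horses. Every escalating dose dot lies below 0, and in the low dose panel L4 and L5 lie mostly on opposite sides of 0.

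The other enzymes of the cycle were lower as well. There were 9 further cycle genes with a probeset of their own. Of these 9 of 9 were called lower on day 28, beside 20.2% of all probesets, with a median log2 change of -1.37. By mean level over the escalating dose arrays, the 9 genes lay among brighter probesets. Of the brightest 10% of probesets 65.8% were called lower, with a median log2 change of -1.07, and of the next 10% 49% were. Cyclic loess left 2 of the 9 genes lower, beside 18.5% of all probesets, and turned 2 higher, beside 6745 of 30559 probesets. The other subunits of the NAD-dependent isocitrate dehydrogenase changed by -1.48 (IDH3B, SE 0.162) and -1.81 (IDH3G, SE 0.164), with intervals that overlapped that of IDH3A. In the oxoglutarate dehydrogenase complex DLD, the lipoamide dehydrogenase shared with other complexes, changed by -1.37 (SE 0.156) and DLST, the succinyltransferase core, by -0.62 (SE 0.134, adjusted p from limma 0.00802). DLST therefore had the smallest fall in the complex that held the largest. In E1 to E4 it went from 7.46, 7.43, 7.79 and 7.33 to 6.82, 6.86, 7.05 and 6.79, and under cyclic loess its change was 0.55, called higher.

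Among the partners of SUCLG1 in succinyl-CoA ligase, the ATP-forming beta subunit SUCLA2 changed by -1.60 (SE 0.166) and the GTP-forming beta subunit SUCLG2 by -0.76 (SE 0.188, adjusted p from limma 0.0143), the latter being called higher under cyclic loess at 0.45. Their 95% intervals, -2.00 to -1.21 and -1.21 to -0.32, lay edge to edge. Succinate dehydrogenase, which belongs to the respiratory chain as well, had log2 changes of -1.30 for its flavoprotein SDHA, -1.11 for its iron-sulfur subunit SDHB and -1.54 for its membrane anchor SDHC, each lower in 4 of 4 horses. Without E2, 8 of these 9 genes were called, and without E1, E3 or E4 all 9 were. With 1 horse left out, 16.8% to 17.9% of all probesets were called lower.

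**Figure D3:**
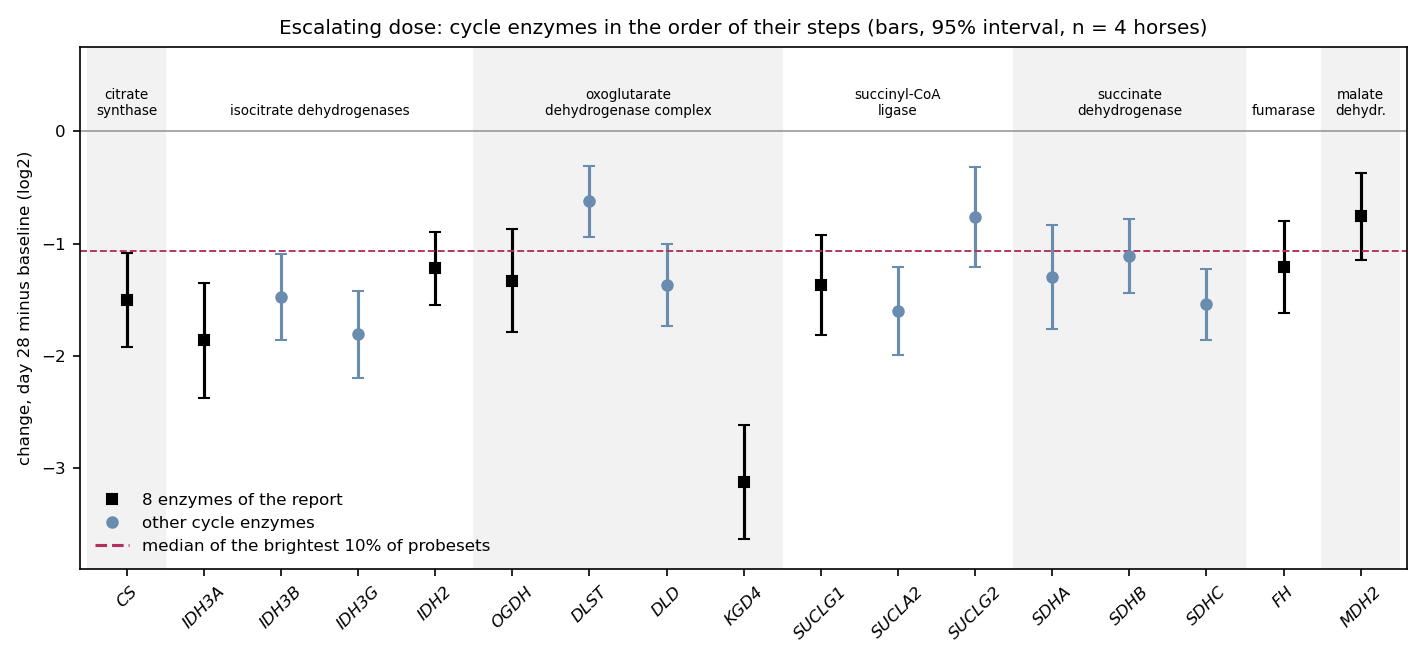
Log2 change from baseline to day 28 of the escalating dose (vertical axis) for the 17 measured cycle enzymes in the order of their steps, squares for the 8 described here and circles for the others, with 95% intervals over 4 horses. KGD4 lies below all others at -3.12, DLST, MDH2 and SUCLG2 lie nearest to 0, and the dashed line marks the median of the brightest 10% of probesets at -1.07.

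The level of a probeset moved with its change. By their mean over the escalating dose arrays, all 8 enzymes were among the brightest 10% of probesets, which held 3056. Of these 65.8% were called lower, 16.1% higher, and the median log2 change was -1.07. Set against it, KGD4 was lower by 2.06, with 0.196% of them showing a lower change, and IDH3A by 0.79, with 15.8% showing a lower change. CS was below that median by 0.44, SUCLG1 by 0.30, OGDH by 0.26, IDH2 by 0.15 and FH by 0.14, while MDH2 was above it by 0.31. The standard deviation within arrays was also smaller on day 28 in each of the 4 horses, and its part in the falls was not tested.

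Scaling the arrays anew changed the size of the falls. Quantile normalization gave a median change of -0.67 over the 8 enzymes with 7 called lower, beside 24% of all probesets, MDH2 being at -0.33 (adjusted p from limma 0.121). Cyclic loess, which evens out differences that depend on brightness, gave a median of -0.13 and left 2 of 8 called lower, beside 18.5% of all probesets: KGD4 at -2.22 (SE 0.253, adjusted p 0.00104) and IDH3A at -0.76 (SE 0.189, adjusted p 0.0193). Under it CS was at -0.31, OGDH at -0.10, SUCLG1 at -0.15, FH at -0.003, IDH2 at 0.02 and MDH2 at 0.31, none called. Centring each array on its median, which moved the median of all probesets from 0.08 to -0.245, gave -1.67 with all 8 called. KGD4 and IDH3A were thus the members called lower in all of these scalings.

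**Figure D4:**
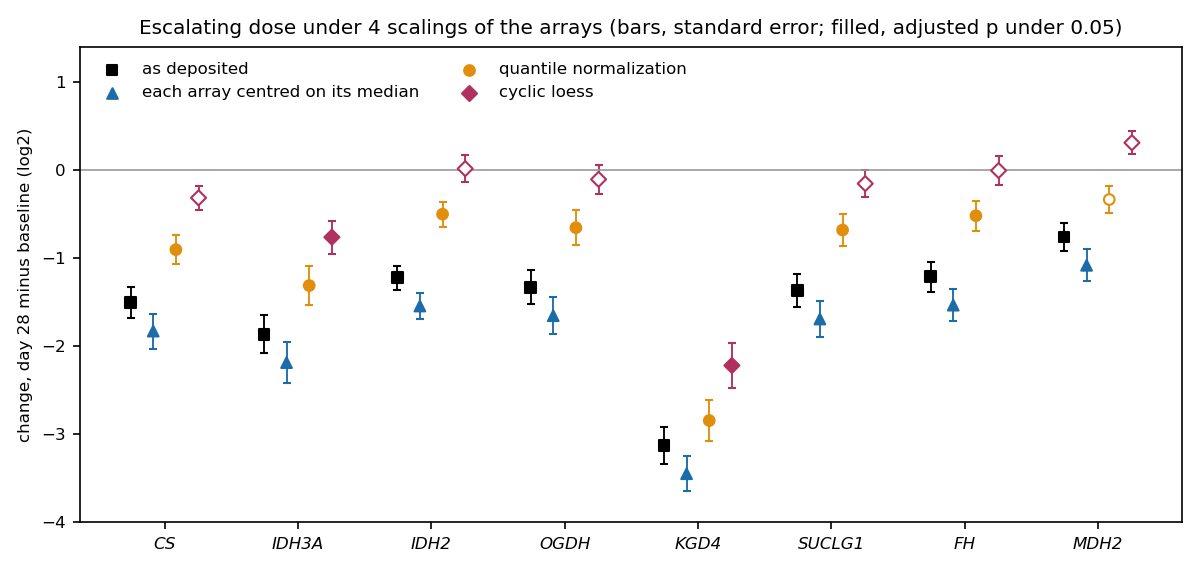
Log2 change from baseline to day 28 of the escalating dose (vertical axis) for the 8 enzymes under 4 scalings of the arrays, with bars for 1 SE and filled symbols for an adjusted p under 0.05. Cyclic loess moves 6 enzymes close to 0 or past it, from -0.31 for CS to 0.31 for MDH2, and KGD4 stays at or below -2.22.

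On day 14 of the low dose none of the 8 enzymes was called. Nor was any other probeset, 0% of 30558 by limma at an adjusted p under 0.05, and 0 of the 8 enzymes had an unadjusted p under 0.05, beside 8.72% of all probesets. The log2 changes of the enzymes ran from -0.45 for IDH2 to 0.65 for KGD4, with a median of -0.07, beside 0.008 over all probesets. Baseline and day 14 arrays overlapped for every enzyme.

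CS in L1 to L5 was at 8.27, 8.52, 8.28, 5.81 and 5.69 at baseline and at 8.17, 8.12, 8.17, 6.79 and 4.47 on day 14. L4 and L5 stood well below the other horses at both times, L4 was higher on the drug and L5 lower. The log2 change of CS was -0.17 (95% interval -0.85 to 0.51). IDH3A was at 6.04, 6.39, 6.31, 3.87 and 3.03 and then at 6.84, 6.51, 6.35, 3.56 and 3.27, a change of 0.18 (-0.26 to 0.61). Here L5 was slightly higher on the drug and L4 lower, unlike for CS.

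IDH2 was the enzyme with a lower value in 5 of 5 horses. Its values were 8.93, 8.82, 8.61, 7.95 and 6.16 at baseline and 8.53, 8.61, 8.41, 7.76 and 4.92 on day 14. L5 had the largest difference, and the other 4 horses differed by 0.4 or less. The log2 change was -0.45 (SE 0.198, 95% interval -0.91 to 0.01, adjusted p from limma 0.575), while 4.75% of all probesets were lower in every horse.

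OGDH measured 8.14, 8.5, 8.35, 6.12 and 5.2 at baseline and 8.2, 8.1, 8.08, 7.26 and 3.56 on day 14. The drop in L5, 1.64, was the deepest of any enzyme and horse in this regimen, and the group change was -0.22 (-1.04 to 0.60). KGD4, the enzyme with the deepest fall at the escalating dose, went from 6.72, 6.66, 6.99, 4.51 and 3.76 to 7.73, 7.6, 6.87, 6.15 and 3.56. It was higher in L1, L2 and L4 and lower in L3 and L5. Its log2 change was 0.65 (SE 0.291, 95% interval -0.02 to 1.33, adjusted p from limma 0.575).

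SUCLG1 was at 7.35, 7.59, 7.39, 5.66 and 4.72 before the drug and at 7.4, 7.56, 7.29, 6.28 and 3.63 on it, a change of -0.11 (-0.67 to 0.45). FH was at 7.75, 7.87, 7.81, 5.92 and 4.89 and then at 8.03, 7.91, 7.7, 6.96 and 4.09, a change of 0.09 (-0.50 to 0.68). MDH2 was at 9.11, 9.3, 9.06, 7.53 and 5.82 and then at 9.1, 9.06, 9.04, 8.47 and 5, a change of -0.03 (-0.60 to 0.54). For these genes L1 to L3 differed by 0.28 or less between the arrays, L4 was higher on day 14 and L5 lower.

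Over the 8 enzymes the median change was 0.96 in L4 and -0.955 in L5, and between -0.12 and 0.055 in L1, L2 and L3. The mean level of the enzymes was 7.74 to 8 over the 6 arrays of L1 to L3 and 4.06 to 6.65 over the 4 arrays of L4 and L5. Markers of any muscle fiber were at 10.9 to 11.2 in the former and 8.36 to 10.4 in the latter. Slow fiber markers were at 8.06 to 8.85 and 4.55 to 7.54. Fast fiber markers were at 9.73 to 9.97 and 8.31 to 9.44, and endothelial markers at 4.48 to 4.88 and 3.06 to 3.72. Smooth muscle and fibroblast markers were also lower in L4 and L5. Leukocyte markers went the other way, at 2.12 to 2.45 and 2.455 to 2.655, as did red blood cell markers, at 1.85 to 2.27 and 2.37 to 2.57. Adipocyte and Schwann cell markers overlapped. The arrays of L4 and L5 also had a smaller standard deviation, 1.2 to 1.41 beside 1.67 to 1.75, and higher medians, 2.65 to 2.74 beside 2.42 to 2.54. Skin epithelium markers had a mean of 5.49 to 5.87 at baseline and 1.86 to 2.09 on day 14 in L1 to L3, and of 2.54 to 2.70 and 2.59 to 2.71 in L4 and L5. The part of any of these cells, or of the array spread, in the enzyme levels was not tested. Without L4 and L5, none of the 8 was called in the other 3 horses, beside 0.582% of all probesets. IDH3A was then at 0.32 (SE 0.203), IDH2 at -0.27 (SE 0.145), KGD4 at 0.61 (SE 0.264) and the rest between -0.20 and 0.07. In the low dose arrays deviations from the group means correlated above 0 in 28 of 28 pairs of enzymes, with a median r of 0.98 over 10 arrays, the highest 0.997 between SUCLG1 and FH, which describes mainly the distance of L4 and L5 from the rest.

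Whether the change differed between the regimens was tested with an interaction contrast over the 18 arrays. Such a contrast takes out a constant shift between the scales of the regimens, but not a difference in array spread. Regimen, day of biopsy and horse differ together, so a difference cannot be laid to dose alone. The escalating dose change was lower than the low dose change for all 8 enzymes, and 6 of 8 were called, beside 16.9% of all probesets called lower and 36.6% called in either direction. KGD4 differed most, by -3.78 (SE 0.404, adjusted p from limma 6.52e-05), followed by IDH3A at -2.04 (SE 0.296, adjusted p 0.000375). CS differed by -1.33 (adjusted p 0.0178), SUCLG1 by -1.26 (adjusted p 0.0122), FH by -1.30 (adjusted p 0.0111) and IDH2 by -0.77 (adjusted p 0.0324). OGDH at -1.11 (95% interval -2.12 to -0.09, adjusted p 0.0841) and MDH2 at -0.73 (-1.44 to -0.02, adjusted p 0.103) were not called. The count was 8 without L5 and 4 without E3, which took away CS (adjusted p 0.0585) and IDH2. Under quantile normalization it was 2 of 8, under cyclic loess 1 and without the horse as a block 1, where 14%, 11.3% and 7.09% of all probesets were called lower, KGD4 being the gene that was called in each of the alternatives run.

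Genes around the cycle were read from lists chosen with earlier results of these data known. Their counts stand beside 20.2% of all probesets called lower and 24.5% called higher at the escalating dose. Among the brightest 10% of probesets 65.8% were called lower and 16.1% higher. Under cyclic loess 18.5% of all probesets were called lower and 6745 of 30559 higher. The pyruvate dehydrogenase complex, which turns pyruvate into the acetyl-CoA that CS uses, and its regulators had 8 of 11 genes called lower on day 28 of the escalating dose and 0 higher, with a median of -1.19, and 2 of 11 lower under cyclic loess, a share near that of all probesets. PDHA1, the catalytic subunit, fell by 1.84 (SE 0.167, adjusted p from limma 0.000214), from a range of 8.95 to 9.14 to one of 6.92 to 7.59, and by 0.61 under cyclic loess. The kinase PDK2, which inhibits the complex, changed by -1.35, PDPR, a regulator of the phosphatase that reactivates it, by -1.31, and PDHB, the partner of PDHA1, by -1.28. PDK4, the kinase known to be induced by fasting and fat use, was at 4.82, 3.96, 5.28 and 4.43 at baseline and at 4.7, 4.53, 4.36 and 4.53 on day 28, with no call (log2 change -0.09, adjusted p 0.794).

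At the low dose 0 of the 11 were called. PDK4 had values of 3.79, 4.55, 4.65, 2.08 and 3.03 in L1 to L5 at baseline and of 2.68, 2.53, 2.31, 2.29 and 2.21 on day 14. It was lower in 4 of 5 horses, all but L4, with a log2 change of -1.22 (SE 0.356, unadjusted p 0.0101, adjusted p from limma 0.485). An unadjusted p under 0.05 was reached by 8.72% of all probesets. The day 14 values lay near the medians of their arrays, 2.42 to 2.74, and L4 was at 2.08 already at baseline.

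Of the enzymes that feed or drain the cycle and the cytosolic counterparts, 14 were measured, and 9 were called lower and 1 higher at the escalating dose, against 6 lower and 1 higher under cyclic loess. GPT2, the mitochondrial alanine transaminase, changed by -1.61 (SE 0.141), GOT1, the cytosolic aspartate transaminase, by -1.58 (SE 0.169), ACO1, the cytosolic aconitase, by -1.09 (SE 0.146) and PC, pyruvate carboxylase, by -1.22 (SE 0.183). GPT2, ACO1 and PC remained called under cyclic loess, at -0.98, -0.73 and -1.44. The gene called higher was PCK1, a phosphoenolpyruvate carboxykinase, at 0.53 (adjusted p from limma 0.0356), named here after its value was seen, and it was not called under any of the other 3 scalings, nor without E1, E2 or E4. Among the 7 carriers of pyruvate and cycle intermediates, 5 were called lower and 1 higher, and 3 were lower under cyclic loess. The mitochondrial pyruvate carrier subunits changed by -1.80 (MPC2, SE 0.158) and -1.15 (MPC1, SE 0.133), the oxoglutarate carrier SLC25A11 by -1.44 (SE 0.169) and the aspartate-glutamate carrier SLC25A12 by -1.31 (SE 0.183), while SLC25A13, the other aspartate-glutamate carrier, also named after its value was seen, changed by 0.72 (adjusted p 0.0138). Under cyclic loess MPC1 was at 0.08 and SLC25A13 at 0.51, neither called, and SLC25A13 was also not called under the other scalings or without E2 or E4.

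Regulators of nuclear genes for mitochondria were mixed: 6 of 14 were called lower, 1 higher and 7 neither, with a median of -0.59. Over all probesets 20.2% were called lower and 24.5% higher. Cyclic loess gave 5 lower and 2 higher, beside 18.5% of all probesets lower and 6745 of 30559 higher. TFAM, which packages and transcribes mitochondrial DNA, fell from 5.81 to 6.25 at baseline to 4.47 to 4.66 on day 28 (log2 change -1.45, SE 0.139, adjusted p from limma 0.000261; -1.29 and called under cyclic loess). TFB2M, a transcription factor of mitochondrial DNA, changed by -1.03 (SE 0.175) and by -1.06 under cyclic loess, both called. PPARGC1A, the coactivator PGC-1α that promotes mitochondrial biogenesis, went from 7.36 to 7.91 at baseline to 6.12 to 6.88 on day 28 (log2 change -1.16, SE 0.137, adjusted p 0.00058), and under cyclic loess the change was -0.03 with no call. GABPB1, a subunit of the factor GABP that acts on genes of the respiratory chain, was higher by 0.83 (SE 0.181, adjusted p 0.00833), and was at 0.51 without a call when arrays were centred on their medians. GABPA, another subunit of GABP, went the other way, from 5.71 to 6.05 at baseline to 4.91 to 5.49 on day 28. It is named here after its values were seen. At the low dose 13 of the 14 had a positive log2 change, 0 were called, and the median was 0.19.

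The genes whose pattern over the 18 arrays, each set against its regimen mean, was most like the mean of the 8 enzymes were COX5A (Pearson r 0.993), TFDP2 (0.993), LPCAT3 (0.992), ZFAND3 (0.992) and UBE2G1 (0.991), out of 16046 single-symbol genes. COX5A encodes a subunit of cytochrome c oxidase. It ranged from 8.64 to 8.75 at the escalating dose baseline and from 6.59 to 7.08 on day 28, and at the low dose from 5.77 to 8.79 and from 4.15 to 9. These correlations carry no test, since the arrays share their scaling and the distance of L4 and L5. Each member followed the mean of the other 7 with an r of 0.891 for KGD4 to 0.99 for SUCLG1.

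Markers of the cells in a biopsy were measured beside the enzymes at the escalating dose. The counts of calls in these lists stand beside 20.2% of all probesets called lower and 24.5% called higher. Of 9 markers of any muscle fiber 2 were called lower, CASQ1 at -0.58 and the oxygen store MB, myoglobin, at -1.53. The mean level of the list was 11.7 to 11.98 at baseline and 11.5 to 11.6 on day 28. TTN, the giant spring protein titin, was at 12.23 to 12.41 and 11.96 to 12.02 (log2 change -0.30, adjusted p from limma 0.115) and NEB, nebulin of the thin filament, at 12.16 to 12.58 and 12.07 to 12.13 (-0.23, adjusted p 0.236), neither called. These probesets lie near the top of the range, the highest mean of a probeset being 13.5. Slow fiber markers, 1 of 7 called lower and 1 higher, had a mean of 8.35 to 9.33 and 8.73 to 8.89, and fast fiber markers, 3 of 7 called lower, one of 10.3 to 10.9 and 9.54 to 9.83. Among the latter MYH2, which encodes a fast myosin motor, went from 8.93 to 11.02 at baseline to 5.01 to 5.61 on day 28 (log2 change -5.03, SE 0.314, adjusted p from limma 7.93e-05), and without it the mean of the other 6 was 10.22 to 11.04 and 10.29 to 10.54. Endothelial markers had 5 of 7 called lower, with a mean of 6.20 to 6.86 and 5.02 to 5.24, and leukocyte markers 4 of 6 called higher, with a mean of 4.14 to 4.58 and 5.01 to 5.15. Smooth muscle and pericyte markers had 4 of 6 called lower and 1 higher, fibroblast markers 3 of 4 lower, adipocyte markers 1 of 5 lower, red blood cell markers 2 of 3 higher, Schwann cell markers 1 of 3 in each direction, and skin epithelium markers 2 of 5 higher and 1 lower. Under cyclic loess the slow fiber list had 7 of 7 called higher and the list of any muscle fiber 4 higher and 1 lower. That scaling gave 6745 of 30559 probesets called higher and 18.5% called lower. The part of these cells in the falls of the cycle enzymes was not tested.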

How the data were processed

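The authors hybridized 18 EquGene-1.0-st arrays (9 horses, 2 arrays each) and made the deposited log2 values with RMA in Affymetrix Expression Console. They also used Transcriptome Analysis Console 3.0. Which arrays were normalized together is not given in the sources used here. The deposited values were analysed as they are, for 30559 probesets. Of these values 1 was missing, in a low dose array, and fits with that array used 30558 probesets. All columns were mapped to samples (0 left over).

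The analysis used R 4.3.3 and limma 3.58.1. Each regimen was fitted alone with horse as a block, since the titles name the same horse before and on the drug and the study's methods pair them. Deviations of arrays of the same horse correlated at 0.42 to 0.70 at the low dose and at -0.02 to 0.12 at the escalating dose, and in 4 of 9 horses the arrays of the same horse correlated more than with any other horse. The regimens were compared by an interaction contrast over 18 arrays. Tests were two-sided, p-values were adjusted by Benjamini-Hochberg over all probesets, and an adjusted p under 0.05 is a call. The procedure was tested on simulated data with independent noise and known changes in a small part of the probesets. The simulation held no difference in array spread and no horses far from the rest, so it does not test their effects.

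Members and lists were chosen with earlier results of these data known. All members and measured cycle genes are named, of each other list up to 4 genes whose escalating dose p was smallest, PPARGC1A and PDK4, and the 5 genes most like the members. PCK1, SLC25A13 and GABPA were named outside this rule, after their values were seen. Where a gene had several probesets, the one with the highest mean stood for it. Alternatives were median centring, quantile normalization, cyclic loess, a filter that kept 50% of the probesets, variances with a trend and robust shrinkage, weights for arrays, a fit that ignores horse, the paired t-test of the study's methods, a fit of all arrays, single-symbol probesets, and leaving out horses. Counts of the lists under other scalings were added after the data were seen. Arrays give no read depth, and their small number limits the precision.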

Additional observations from a re-analysis of the deposited data

Results flagged for a closer look

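Single horses stood apart from their group in 8 of 48 sets of 4 or 5 values examined over the 8 enzymes (Dixon's test). Among independent sets chance picks out about 1 in 20. These sets are not independent, since the enzymes share horses and arrays, and 1 array can be flagged for several enzymes. On day 14 of the low dose, L5 was far below the other horses for IDH2 (4.92, the next 7.76), OGDH (3.56, the next 7.26), FH (4.09, the next 6.96) and MDH2 (5, the next 8.47). The IDH2 change in L5, -1.24, also stood apart from the next at -0.4. The arrays of L5 had the smallest standard deviation over probesets of the low dose arrays, at 1.31 and 1.2. At the escalating dose IDH3A was highest in E4 on day 28 (6.42, the next 5.9), FH was highest in E3 at baseline (8.17, the next 7.93), and MDH2 was lowest in E1 at baseline (9.55, the next 9.72).

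The change from baseline differed between the regimens, with an adjusted p under 0.05 from limma's interaction contrast, for 6 enzymes. The escalating dose change minus the low dose change was -1.33 for CS, -2.04 for IDH3A, -0.77 for IDH2, -3.78 for KGD4, -1.26 for SUCLG1 and -1.30 for FH. The difference for IDH2 was no longer called in 11 of 16 alternatives and turned in 1 more, and that for CS was no longer called in 4. For FH and for SUCLG1 it was no longer called in 2 and turned in 1 more, and for IDH3A it was not called in 2. The difference for KGD4 was called in all 16.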

How the results depend on the processing

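At the low dose the count of enzymes called was 0 under all 17 alternatives. The median change of the 8 enzymes, -0.07, was 0.15 without L5 and -0.28 without L4, the extremes when single horses were left out. At the escalating dose 8 enzymes were called under all of the 15 alternatives but 4: 7 under quantile normalization, under the methods' paired t-test and under the methods' thresholds of unadjusted p and fold, each time without MDH2, and 2 under cyclic loess. The median change, -1.35, was -1.67 with arrays centred on their medians, -0.67 under quantile normalization and -0.13 under cyclic loess, and -1.50 to -1.21 when single horses were left out. Under cyclic loess IDH2 turned to 0.018 and MDH2 to 0.31, and the difference between regimens was above 0 for 5 of 8 enzymes, at 0.45 for IDH2, 0.076 for SUCLG1, 0.026 for FH, 0.17 for OGDH and 0.31 for MDH2. The number of enzymes whose change differed between the regimens, 6, was 2 under quantile normalization, 1 under cyclic loess, and 4 (without E3) to 8 (without L5) when single horses were left out. For IDH2 this difference missed the threshold in 11 of 16 alternatives and turned in 1 more. The cause of these differences was not tested.

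Without the replicate block, which ignores that the arrays are paired by horse, 8 enzymes were called at the escalating dose and 0 at the low dose, and for the difference between regimens 1 in place of 6, with 6960 probesets in place of 11179.

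Over all probesets the escalating dose gave 13662 calls with horse as a block and 8389 by the methods' paired t-test after Benjamini-Hochberg adjustment. At the methods' thresholds, an unadjusted p under 0.05 and a fold over 2, that test picked out 7595 probesets with 7 of the 8 enzymes, and at the low dose 176 with 0. In the methods these thresholds belong to an ANOVA, and the paired t-test goes with adjusted p-values. Of the escalating dose calls 54.9% were higher, and 33.1% when arrays were centred on their medians. With 4 and 5 horses and no untreated group, the time course and the drug cannot be separated.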
